A study of Mus musculus with 23 samples.

Results

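The collagen genes were taken as every gene of the count table whose mouse symbol has the form Col, number, a, number. This gave 44 of 53402 gene identifiers, and all 44 passed the filter on low counts. Sorted by the kind of assembly their chains build, they were 11 fibrillar chains, 9 FACIT chains (collagens that sit on the surface of fibrils), 6 chains of the type IV basement membrane network, 6 type VI chains of beaded filaments, 4 transmembrane chains, 3 short-chain network members, 2 multiplexins, the anchoring fibril gene Col7a1, and Col26a1 and Col28a1.

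The genes were measured by bulk sequencing of total RNA from epithelial cells of the thymic medulla (mTECs), in 23 libraries from C57BL/6 mice. Cells without DAPI, CD45 and Ly51 signal but with EpCAM had been sorted by surface MHC class II into a high gate (mTEChi) and a low gate (mTEClo), from WT mice and from mice without the transcriptional regulator Aire (KO). There were 4 libraries of KO mTEChi and 7 of WT mTEChi, and 4 of KO mTEClo and 8 of WT mTEClo. In each gate the KO libraries were male, with replicates 1 and 2 from mice of 5 weeks and replicates 3 and 4 from mice of 6 weeks. WT mTEChi held 2 male libraries of 4 weeks and 5 libraries of 5 weeks, of which 2 were female. WT mTEClo held 5 libraries of 4 weeks, of which 1 was female, and 3 of 5 weeks, of which 2 were female. KO and WT libraries therefore shared only the age of 5 weeks. The labels give no Aire allele and do not say whether libraries came from separate animals, so p-values measure only the spread between these samples, which may be technical.

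Collagens are extracellular proteins whose chains wind around each other in a helix, usually as trimers of fixed partners. Fibrillar collagens give tissue its tensile strength, type IV chains form the sheet beneath epithelia, and types VII and XVII tie epithelium to that sheet. Medullary thymic epithelium lies in such a matrix, and it also transcribes genes of peripheral tissues, many of them through Aire, so that T cells reactive to their products can be removed. Several collagens are known targets of autoimmune disease, among them the chains encoded by Col2a1 in arthritis, Col4a3 in Goodpasture disease, and Col7a1 and Col17a1 in blistering skin disease.

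Library totals were 2528049 to 3106026 counts in KO mTEChi and 1602125 to 3231079 in WT mTEChi, and 1639231 to 3938588 in KO mTEClo and 1628778 to 3883437 in WT mTEClo. Replicates 1 and 2 of KO mTEClo, WT mTEChi and WT mTEClo were the 6 libraries under 2000000 counts. Levels are in CPM, library-size-scaled counts with TMM factors. Aire stood at 17.1 to 39.3 CPM in KO mTEChi and 753 to 921 CPM in WT mTEChi, and at 0 to 7.58 CPM in KO mTEClo and 19.6 to 128 CPM in WT mTEClo. All 11 defining mTEC markers were counted in each group. Markers of other cells were counted too. The summed level of 11 fibroblast markers was 223 to 265 CPM in KO mTEChi and 175 to 248 CPM in WT mTEChi, and 143 to 223 CPM in KO mTEClo and 96.03 to 151 CPM in WT mTEClo, with Twist2 and Tcf21 at 0 in KO mTEChi and WT mTEClo and Tcf21 at 0 in KO mTEClo. Fewer cells of a kind and less RNA per cell cannot be told apart in such samples.

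Together the collagen genes took up 1769 ± 334 CPM in KO mTEChi (SD, n = 4) and 2618 ± 344 CPM in WT mTEChi (n = 7), with every KO library below every WT library. In the low gate they took up 3566 ± 416 CPM in KO (n = 4) and 3912 ± 454 CPM in WT (n = 8), and the libraries overlapped. The make-up of this RNA differed by gate. In mTEClo the type VI chains held the largest share of the classes, 35.6% of the collagen CPM in KO and 35.3% in WT, followed by the type IV network with 21.4% in KO and 25.3% in WT. In mTEChi the FACIT chains led, with 43.9% in KO and 28.7% in WT, and the fibrillar chains came second, with 17.5% in KO and 24.8% in WT.

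Per kilobase of exon, the leading members of mTEClo were Col6a1, Col4a1, Col6a2 and Col4a2. Col6a1 stood at 123 CPM per kilobase in KO mTEClo and 122 in WT mTEClo, and Col4a1 at 53.8 in KO mTEClo and 71.8 in WT mTEClo. In mTEChi the first place went to Col14a1, a FACIT chain that binds fibrils, with 59.1 CPM per kilobase in KO and 34.1 in WT. It was followed by Col17a1 in KO mTEChi (30.1 CPM per kilobase) and by Col4a1 in WT mTEChi (24.3 CPM per kilobase). Col1a1, the main chain of bone and skin, ranked 35 of 44 in KO mTEChi and 7 of 44 in WT mTEChi on this scale.

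**Figure D1:**
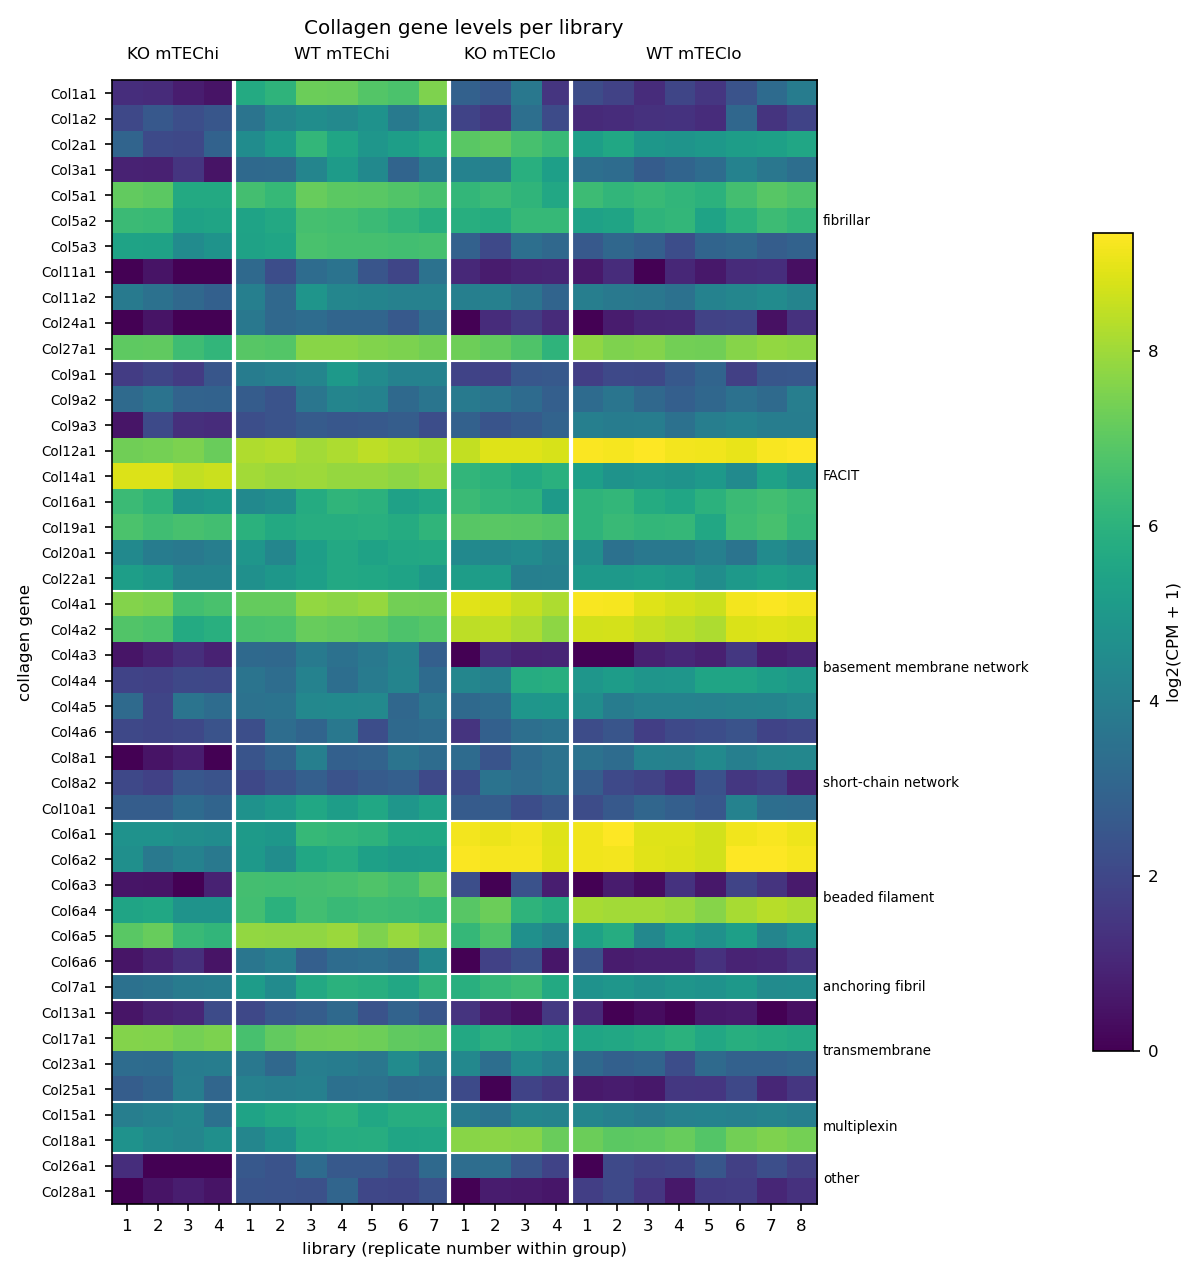
Level of each collagen gene (rows, by structural class) in each of the 23 libraries (columns, by group and replicate number) as log2(CPM + 1). Col6a1, Col6a2, Col4a1, Col4a2 and Col12a1 form the bright bands of both mTEClo groups, while Col1a1 and Col6a3 are bright in WT mTEChi and dark in KO mTEChi.

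The first comparison asks how collagen genes differ in the cells that carry most Aire. Of the 44 members, 31 fell and 3 rose in KO mTEChi against WT mTEChi, and 10 did not pass the test, at an adjusted p under 0.05 in edgeR's quasi-likelihood test with Benjamini-Hochberg adjustment over all 19310 genes tested. Among all genes tested, 28.0% fell and 25.7% rose in the same comparison. The median log2 change was -1.185 over the 44 members and -0.01 over all genes tested. All 6 type VI chains fell, as did 9 of 11 fibrillar chains, 4 of 6 type IV chains, 4 of 9 FACIT chains, 2 of 3 short-chain members, both multiplexins, Col7a1, Col26a1 and Col28a1. Only Col13a1 fell among the 4 transmembrane chains. Without the libraries under 2000000 counts, 33 members fell and 3 rose.

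**Figure D2:**
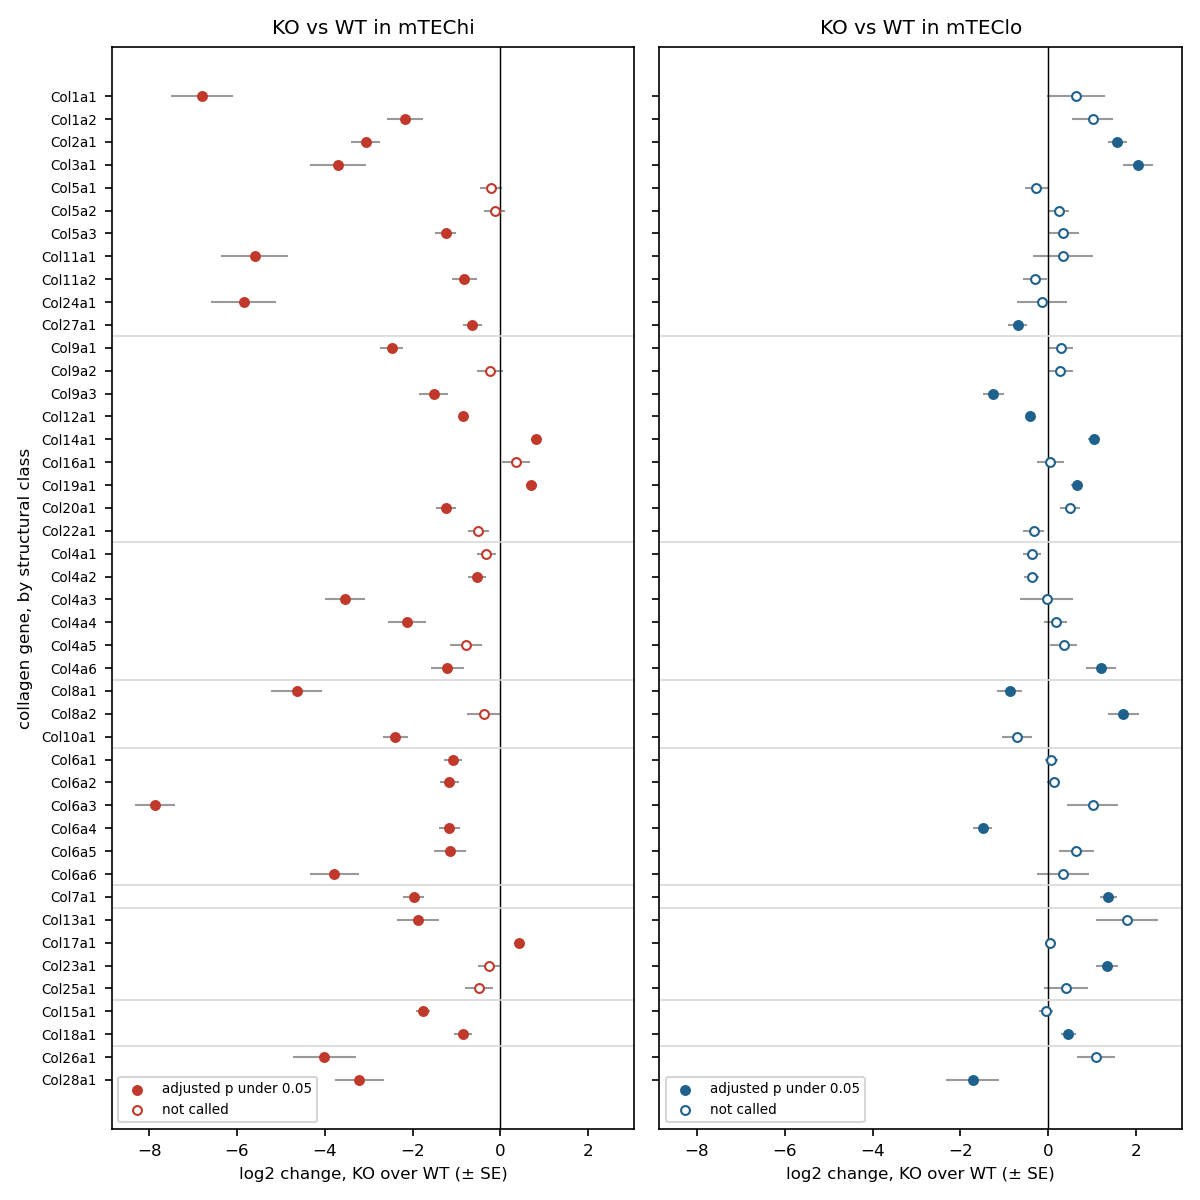
Log2 change of KO over WT (± SE) for each collagen gene in mTEChi (left panel) and mTEClo (right panel), with filled points for members that passed at an adjusted p under 0.05. In mTEChi 31 members lie to the left of 0 and pass, led by Col6a3 at -7.86, and in mTEClo 9 pass to the right of 0 and 6 to the left.

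Among type VI collagen, in which the chains of Col6a1, Col6a2 and Col6a3 assemble together, Col6a3 had levels unlike those of its partners. Col6a3 (ENSMUSG00000048126, chr1:90765923-90843971 of GRCm38, minus strand) had 0.439, 0.409, 0 and 0.835 CPM in KO mTEChi, against a lowest value of 90.6, a median of 95.5 and a highest of 137 CPM in WT mTEChi. The KO libraries held 4 counts of it in all and the WT libraries 1926, and no KO library came near a WT one. The log2 change was -7.86 ± 0.45 (edgeR quasi-likelihood, adjusted p = 9.4e-13), the largest fall of any member.

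In mTEClo the same chain was at or near 0 in both genotypes, with 3.79, 0, 4.17 and 0.729 CPM in KO and a lowest, median and highest of 0, 0.618 and 2.75 CPM in WT. Those values overlapped and did not pass (log2 change 1.02 ± 0.58, adjusted p = 0.22). Within WT, mTEChi exceeded mTEClo by a log2 change of 6.54 ± 0.28 (adjusted p = 3.3e-17). Within KO the direction was the other way, with mTEChi below mTEClo by -2.34 ± 0.88 (adjusted p = 0.025) and overlapping libraries. That call was lost without replicate 3 of KO mTEClo (log2 change -1.66, adjusted p = 0.164), without replicate 1 of KO mTEClo (adjusted p = 0.0592), without replicate 3 of KO mTEChi (adjusted p = 0.071) and without a filter on low counts (adjusted p = 0.0657).

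Its partners ran opposite to it between the gates of WT, though not between those of KO. Col6a1 (chr10:76708792-76726168, minus strand) had 25.9, 26.2, 23.3 and 22.6 CPM in KO mTEChi and 29.4, 48.1 and 75.0 CPM as lowest, median and highest of WT mTEChi, and all KO libraries lay below the WT ones. The low gate held 583, 533, 572 and 474 CPM in KO, and in WT mTEClo 414, 558 and 639 CPM as lowest, median and highest. The gates stood far apart in both genotypes and the genotypes overlapped in mTEClo. Col6a1 fell by 1.08 ± 0.21 on the log2 scale in KO mTEChi (adjusted p = 0.00011) and was lower in WT mTEChi than in WT mTEClo by a log2 change of -3.31 ± 0.15 (adjusted p = 2.1e-16).

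Col6a2, its neighbour on chromosome 10 (chr10:76595762-76623630, minus strand), showed nearly the same levels. It had 24.1, 12.7, 16.8 and 12.5 CPM in KO mTEChi and 22.8, 35.0 and 54.4 CPM as lowest, median and highest of WT mTEChi, where 1 KO library reached into the WT range. Its mTEClo levels were 615, 598, 592 and 482 CPM in KO, and in WT mTEClo 416, 566 and 643 CPM. It fell in KO mTEChi (log2 change -1.16 ± 0.21, adjusted p = 5.3e-05) and was lower in WT mTEChi than in WT mTEClo (-3.82 ± 0.14, adjusted p = 3.8e-18). Per kilobase of exon, the ratio of Col6a3 to Col6a2 was 0.0177 in KO mTEChi and 1.89 in WT mTEChi, and 0.00264 in KO mTEClo and 0.00128 in WT mTEClo. The ratio of Col6a1 to Col6a2 varied less, with 2.82 in KO mTEChi, 2.65 in WT mTEChi, 1.80 in KO mTEClo and 1.87 in WT mTEClo.

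The bases just before the starts of Col6a3 and Col6a2 are shown because these partner chains of one protein differed in opposite directions between WT mTEChi and WT mTEClo. They are RefSeq sequences of GRCm38.p6, both on the minus strand, 60 bases each, and neither stretch holds TATAAA on that strand or GGGCGG or CCAAT on either strand, so there are no capitals. RefSeq gives Col6a2 a further start within the gene, and the 60 bases before that start (chr10:76623405-76623464), which overlap an exon and are not printed, hold CCGCCC, or GGGCGG on the other strand, at 2 overlapping places.
Col6a3, chr1:90843972-90844031: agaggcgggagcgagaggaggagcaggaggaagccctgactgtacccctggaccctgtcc
Col6a2, chr10:76623631-76623690: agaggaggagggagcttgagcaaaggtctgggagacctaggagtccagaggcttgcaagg

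The remaining type VI chains, Col6a4, Col6a5 and Col6a6, lie side by side on chromosome 9 and encode chains that can take the place of the Col6a3 chain. Col6a4 had 43.0, 46.6, 27.0 and 27.1 CPM in KO mTEChi and 61.2, 81.7 and 89.6 CPM as lowest, median and highest of WT mTEChi. At low MHC class II it had 119.6, 150.3, 67.0 and 53.7 CPM in KO, and in WT mTEClo 199.8, 270.4 and 326 CPM. It was the one type VI gene that fell in both gates, by 1.16 ± 0.24 on the log2 scale in KO mTEChi (adjusted p = 0.00028) and by 1.49 ± 0.22 in KO mTEClo (adjusted p = 3.2e-05), with no overlap of libraries in either. Col6a5 and Col6a6 fell in KO mTEChi, with mean levels of 104 ± 34.8 and 0.761 ± 0.445 CPM in KO (n = 4) and 217 ± 21.9 and 11.2 ± 4.45 CPM in WT (n = 7), and did not pass in mTEClo. With age in the fit, Col6a5 no longer passed in mTEChi (adjusted p = 0.129).

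**Figure D3:**
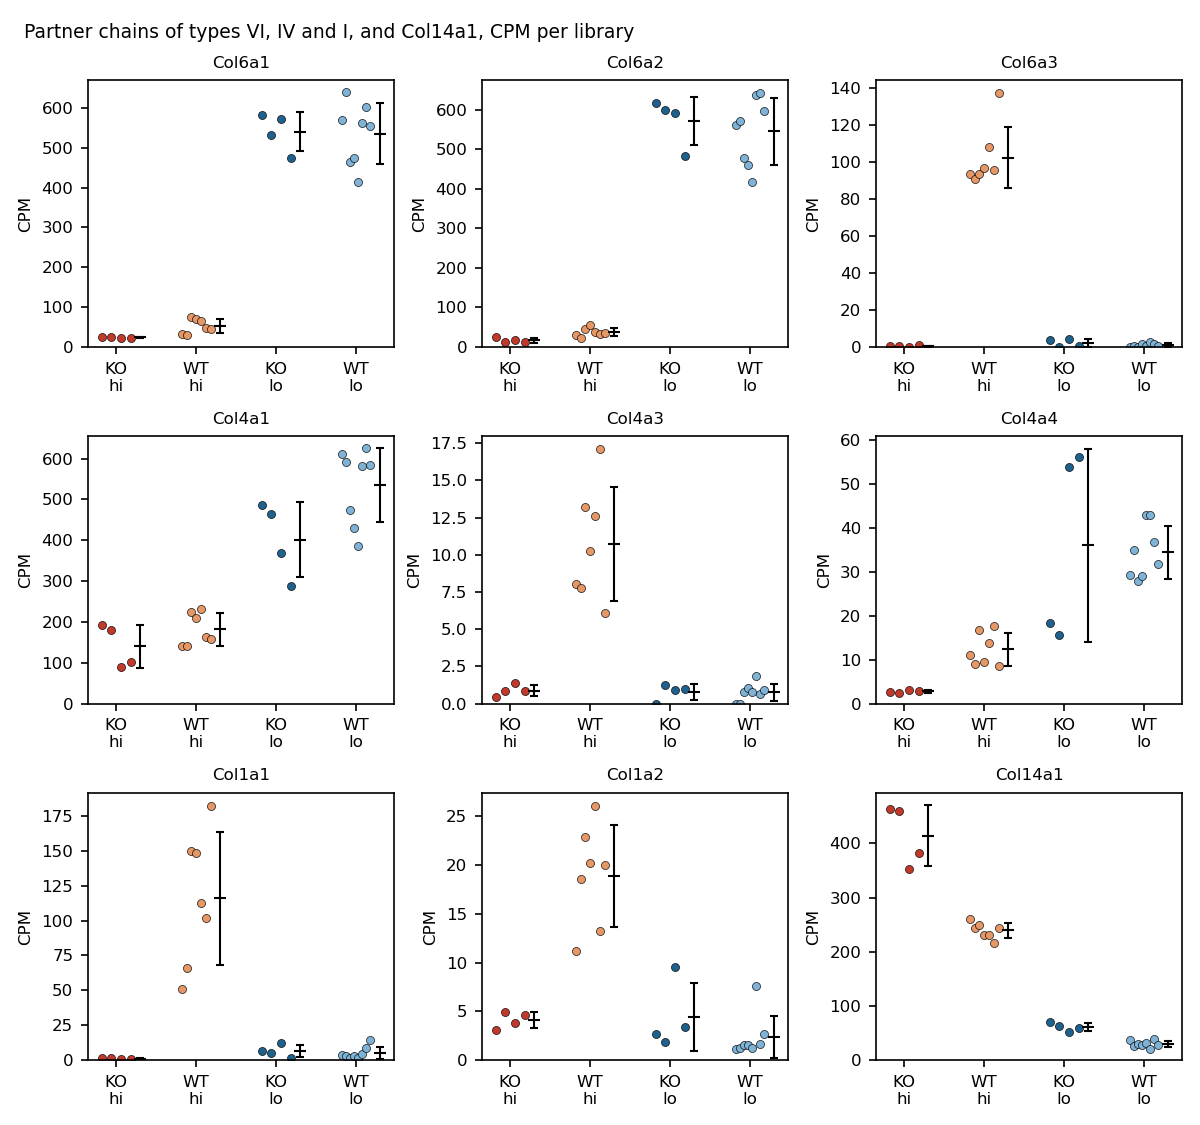
CPM per library of type VI chains (Col6a1, Col6a2, Col6a3), type IV chains (Col4a1, Col4a3, Col4a4), type I chains (Col1a1, Col1a2) and Col14a1 in KO and WT mTEChi (hi) and mTEClo (lo). Points are libraries and bars the mean ± SD. Col6a3 is high in WT mTEChi alone, at 90.6 to 137 CPM, while Col6a1 and Col6a2 are high in both mTEClo groups.

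Type IV collagen is built from 6 chains encoded in 3 pairs of genes that start head to head. Col4a1 and Col4a2 (chromosome 8), the chains of most basement membranes, had the highest levels of the class. Col4a1 had 192, 179.6, 89.7 and 101 CPM in KO mTEChi and 141, 163 and 232 CPM as lowest, median and highest of WT mTEChi. In KO mTEClo it had 486, 465, 368 and 288 CPM, and in WT mTEClo 387, 583 and 624.9 CPM. The genotypes overlapped in both gates and did not pass (log2 change -0.32 ± 0.22 with adjusted p = 0.22 in mTEChi, and -0.36 ± 0.21 with adjusted p = 0.22 in mTEClo). The gates did not overlap within WT, where mTEChi was lower by a log2 change of -1.55 ± 0.17 (adjusted p = 3.7e-08).

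Col4a2 had 111, 104, 51.7 and 58.9 CPM in KO mTEChi and 100.4, 117 and 143 CPM as lowest, median and highest of WT mTEChi. It passed with a small fall and overlapping libraries (log2 change -0.53 ± 0.20, adjusted p = 0.025). A term for the libraries under 2000000 counts took the call away (adjusted p = 0.0509), as did leaving out replicate 3 (adjusted p = 0.0848) or 4 (adjusted p = 0.104) of KO mTEChi. The low gate held 343, 348, 293 and 217 CPM in KO, and in WT mTEClo 288, 420.2 and 470.1 CPM, without a call (adjusted p = 0.13). WT mTEChi was lower than WT mTEClo by a log2 change of -1.73 ± 0.15 (adjusted p = 2.5e-10). The ratio of Col4a1 to Col4a2 per kilobase lay at 1.54 in KO mTEChi, 1.36 in WT mTEChi, 1.19 in KO mTEClo and 1.19 in WT mTEClo.

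Col4a3 and Col4a4 (chromosome 1) encode chains of the kidney's filtering membrane and share a start region, but their levels parted between the gates. Col4a3 had 0.439, 0.818, 1.37 and 0.835 CPM in KO mTEChi and 6.07, 10.3 and 17.1 CPM as lowest, median and highest of WT mTEChi. Its mTEClo levels were 0, 1.25, 0.893 and 0.971 CPM in KO, and in WT mTEClo 0, 0.764 and 1.83 CPM. Only WT mTEChi stood out. Col4a3 fell by 3.54 ± 0.45 on the log2 scale in KO mTEChi (adjusted p = 2.1e-07), and WT mTEChi was above WT mTEClo by a log2 change of 3.63 ± 0.33 (adjusted p = 4.4e-11).

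Col4a4 had 2.63, 2.46, 3.08 and 2.92 CPM in KO mTEChi and 8.57, 11.2 and 17.8 CPM as lowest, median and highest of WT mTEChi, without overlap. At low MHC class II it had 18.4, 15.7, 53.9 and 56.3 CPM in KO, and in WT mTEClo 28.1, 33.4 and 43.0 CPM, so the KO libraries lay on both sides of the WT range. It fell in KO mTEChi (log2 change -2.13 ± 0.43, adjusted p = 0.00019), but unlike Col4a3 it was lower in WT mTEChi than in WT mTEClo (-1.45 ± 0.23, adjusted p = 4.9e-06). The ratio of Col4a3 to Col4a4 per kilobase was 0.332 in KO mTEChi and 0.925 in WT mTEChi, and 0.0230 in KO mTEClo and 0.02305 in WT mTEClo. The exons of Col4a3 share 563 bases (5.65% of their length) with C430014B12Rik on the opposite strand, and the libraries keep no strand information, so the reads of this pair cannot be told apart there.

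All the bases between the annotated starts of Col4a4 (minus strand) and Col4a3 (plus strand) are shown, since these neighbours differed in opposite directions between WT mTEChi and WT mTEClo. The stretch of 71 bases is RefSeq sequence of GRCm38.p6 read on the minus strand, and holds neither TATAAA on that strand nor GGGCGG or CCAAT on either strand. The 60 bases before the start of Col4a6 follow, with capitals for CCGCCC, which is GGGCGG on the other strand.
Col4a4 to Col4a3, chr1:82586850-82586920: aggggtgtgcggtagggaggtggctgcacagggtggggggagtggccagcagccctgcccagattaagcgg
Col4a6, chrX:141474077-141474136, minus strand: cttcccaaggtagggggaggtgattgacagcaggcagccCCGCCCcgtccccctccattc

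The last pair, Col4a5 and Col4a6, lies on the X chromosome with 1308 bases between the starts. Col4a5 had 8.34, 2.86, 10.9 and 8.77 CPM in KO mTEChi and 7.75, 11.8 and 20.5 CPM as lowest, median and highest of WT mTEChi, and 8.12, 8.77, 28.9 and 29.9 CPM in KO mTEClo and 13.99, 17.0 and 22.98 CPM in WT mTEClo. The genotypes overlapped in both gates, and neither passed (adjusted p = 0.072 in mTEChi and 0.43 in mTEClo). Col4a6 had 3.07, 2.86, 3.08 and 4.18 CPM in KO mTEChi and 3.60, 8.07 and 12.4 CPM in WT mTEChi, and fell (log2 change -1.21 ± 0.38, adjusted p = 0.0087). In KO mTEClo it had 1.62, 6.26, 9.53 and 10.7 CPM, and in WT mTEClo 2.29, 3.30 and 4.45 CPM, a rise of 1.20 ± 0.35 on the log2 scale (adjusted p = 0.013) with overlapping libraries. That rise turned to a log2 change of -0.17 (adjusted p = 0.925) among 5-week males alone, where WT mTEClo has a single library, and the call was lost without replicate 3 (adjusted p = 0.0643) or 4 (adjusted p = 0.0989) of KO mTEClo.

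Among the fibrillar chains, the cartilage gene Col2a1 had the smallest p for the difference of KO effects between the gates. It encodes the main collagen of cartilage. Col2a1 had 7.02, 3.27, 3.08 and 6.68 CPM in KO mTEChi and 22.3, 36.5 and 71.05 CPM as lowest, median and highest of WT mTEChi. The low gate held 123, 134, 98.3 and 79.2 CPM in KO, and in WT mTEClo 27.8, 36.1 and 45.8 CPM. Neither pair overlapped, and the directions were opposite. Col2a1 fell by 3.06 ± 0.33 on the log2 scale in KO mTEChi (adjusted p = 4.6e-08) and rose by 1.58 ± 0.22 in KO mTEClo (adjusted p = 1.5e-05), and the difference of these KO effects was itself -4.64 ± 0.39 (adjusted p = 6.8e-09). In WT the gates overlapped and did not pass (log2 change 0.20 ± 0.19, adjusted p = 0.36).

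Col3a1, the fibrillar collagen of reticular fibres, had 0.877, 0.818, 1.71 and 0.418 CPM in KO mTEChi and 7.10, 14.3 and 33.5 CPM as lowest, median and highest of WT mTEChi, without overlap. Its mTEClo levels were 16.8, 15.7, 57.8 and 37.4 CPM in KO, and in WT mTEClo 5.61, 9.10 and 16.8 CPM, so both 6-week KO libraries lay above the WT range and both 5-week KO libraries at or below its upper end. Col3a1 fell by 3.70 ± 0.63 on the log2 scale in KO mTEChi (adjusted p = 3.2e-05) and rose by 2.04 ± 0.35 in KO mTEClo (adjusted p = 0.00018). Among 5-week males alone the mTEClo change was -0.05 (adjusted p = 0.986), and with age in the fit it did not pass.

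Type I collagen, the main collagen of bone, skin and tendon, needs the products of Col1a1 and Col1a2. Both are named here although the rule for named genes did not take them, after their values were seen. Col1a1 had 1.32, 1.23, 0.685 and 0.418 CPM in KO mTEChi, from 9 counts in all, and 50.8, 112.5 and 182 CPM as lowest, median and highest of WT mTEChi. It stood at 6.35 ± 4.39 CPM in KO mTEClo (n = 4) and 4.88 ± 4.38 CPM in WT mTEClo (n = 8), so WT mTEChi alone held it at a high level. The log2 change in KO mTEChi was -6.80 ± 0.70 (adjusted p = 1.3e-07). Col1a2 averaged 4.08 ± 0.831 CPM in KO mTEChi and 18.9 ± 5.21 CPM in WT mTEChi (log2 change -2.17 ± 0.41, adjusted p = 7.1e-05). Per kilobase of annotated exon (6563 bases for Col1a1 and 12426 for Col1a2), Col1a1 stood at 0.422 times Col1a2 in KO mTEChi and 11.6 times in WT mTEChi.

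Col24a1, a fibrillar chain of bone, and Col11a1, one of cartilage, had 1 count each over the 4 KO mTEChi libraries, against 149 and 133 counts in WT mTEChi. The ratios of WT to KO were 80.3 (95% counting interval 14.2 to 3193) for Col24a1 and 71.7 (12.7 to 2852) for Col11a1, and both passed. Col5a3, a chain of the type V collagen that controls fibril width, had 41.2, 40.5, 21.9 and 26.7 CPM in KO mTEChi and 40.9, 93.9 and 101 CPM as lowest, median and highest of WT mTEChi, and fell by 1.25 ± 0.24 on the log2 scale (adjusted p = 8.8e-05), with 1 KO library just inside the WT range. In mTEClo it stood at 6.79 ± 2.74 CPM in KO and 6.24 ± 1.40 CPM in WT. Col27a1, a cartilage chain, fell in both gates, with 129.9, 133, 86.6 and 69.3 CPM in KO mTEChi against 115, 179.8 and 203 CPM in WT mTEChi, and 155, 137, 108 and 66.5 CPM in KO mTEClo against 158, 196 and 224 CPM in WT mTEClo. The log2 changes were -0.64 ± 0.21 in mTEChi (adjusted p = 0.015) and -0.69 ± 0.21 in mTEClo (adjusted p = 0.021). Neither held without every library: the mTEChi call was lost without replicate 4 of KO mTEChi (adjusted p = 0.0696), and the mTEClo call without replicate 3 (adjusted p = 0.0609) or 4 (adjusted p = 0.0793) of KO mTEClo. Col5a1 and Col5a2 passed in neither gate, and Col11a2 fell in mTEChi (9.38 ± 3.0 CPM in KO and 17.1 ± 6.11 CPM in WT), a call lost without replicate 4 of KO mTEChi (adjusted p = 0.0597) or replicate 3 of WT mTEChi (adjusted p = 0.0524).

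The FACIT chains held 2 of the 3 members that rose in KO mTEChi. Col14a1 (chr15:55307750-55520803, plus strand) had 464, 459.5, 353 and 381 CPM in KO mTEChi and 216, 244 and 260.2 CPM as lowest, median and highest of WT mTEChi. At low MHC class II it had 69.8, 62.6, 51.8 and 59.5 CPM in KO, and in WT mTEClo 21.1, 28.8 and 39.3 CPM. Every KO library lay above every WT library of its gate, and every mTEChi library above every mTEClo library. Col14a1 rose by a log2 change of 0.81 ± 0.11 in KO mTEChi (adjusted p = 3.5e-07) and 1.05 ± 0.13 in KO mTEClo (adjusted p = 1e-06), and the difference of these KO effects did not pass (-0.23 ± 0.16, adjusted p = 0.32). WT mTEChi stood above WT mTEClo by 3.01 ± 0.10 (adjusted p = 1.7e-20).

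Col19a1, a FACIT chain found near basement membranes, also rose in both gates. It had 102, 88.8, 96.9 and 91.05 CPM in KO mTEChi and 50.4, 55.9 and 68.5 CPM as lowest, median and highest of WT mTEChi, and 119, 122, 120 and 110.2 CPM in KO mTEClo and 47.3, 73.2 and 97.7 CPM in WT mTEClo. No KO library overlapped the WT range in either gate (log2 change 0.70 ± 0.13 with adjusted p = 3.9e-05 in mTEChi, and 0.65 ± 0.12 with adjusted p = 0.0004 in mTEClo). Col12a1, the FACIT chain of tendon and ligament fibrils, moved the other way. It had 156, 165, 179 and 148 CPM in KO mTEChi and 265, 299 and 342 CPM in WT mTEChi, and 360, 473, 470.3 and 439.5 CPM in KO mTEClo and 515, 602 and 647 CPM in WT mTEClo. Again neither pair overlapped, and both falls passed (log2 change -0.86 ± 0.09 with adjusted p = 8.1e-09 in mTEChi, and -0.42 ± 0.09 with adjusted p = 0.00079 in mTEClo). Among 5-week males alone, where WT mTEClo has a single library, the log2 changes in mTEClo were smaller. They were 0.48 for Col19a1 and -0.32 for Col12a1.

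Type IX collagen decorates cartilage fibrils and is built from Col9a1, Col9a2 and Col9a3, and the 3 genes did not give the same calls. Col9a1 had 2.19, 2.86, 2.05 and 4.59 CPM in KO mTEChi and 14.2, 16.8 and 32.3 CPM as lowest, median and highest of WT mTEChi, without overlap (log2 change -2.48 ± 0.27, adjusted p = 1.2e-08). In mTEClo it stood at 3.77 ± 1.35 CPM in KO and 4.07 ± 1.64 CPM in WT. Col9a3 had 0.439, 3.27, 1.37 and 1.25 CPM in KO mTEChi and 3.57, 4.83 and 5.81 CPM in WT mTEChi, and 6.496, 4.38, 5.36 and 6.80 CPM in KO mTEClo and 10.2, 14.6 and 16.5 CPM in WT mTEClo. It fell in both gates without overlap, by 1.52 ± 0.34 (adjusted p = 0.00039) in mTEChi and 1.25 ± 0.23 (adjusted p = 0.00026) in mTEClo on the log2 scale. Its exons share 234 bases with Tcfl5 on the opposite strand, where reads of the pair cannot be told apart either. Shorter stretches, 14 to 162 bases each, are shared with another gene on the opposite strand by exons of Col6a4, Col5a1, Col6a6, Col4a1, Col4a2, Col10a1, Col22a1 and Col15a1, and on the same strand by those of Col3a1, Col20a1 and Col7a1. Col9a2 passed in neither gate (adjusted p = 0.51 in mTEChi and 0.53 in mTEClo). Of the other FACIT chains, Col20a1 fell in mTEChi, with 15.7 ± 3.45 CPM in KO and 38.7 ± 11.5 CPM in WT, and Col16a1 and Col22a1 did not pass.

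The collagens that fasten epithelium to its basement membrane parted from each other. Col17a1, the transmembrane collagen of hemidesmosomes (the junctions between basal epithelial cells and the matrix), had 192, 189, 165 and 179 CPM in KO mTEChi and 98.5, 134 and 163 CPM as lowest, median and highest of WT mTEChi. It had 48.2, 62.0, 53.0 and 46.1 CPM in KO mTEClo and 43.6, 51.0 and 60.8 CPM in WT mTEClo. Col17a1 rose slightly in KO mTEChi without overlap (log2 change 0.42 ± 0.11, adjusted p = 0.002) and did not pass in mTEClo (0.04 ± 0.12, adjusted p = 0.85). Of 19310 genes, 18.2% had all KO mTEChi libraries above all WT mTEChi libraries and 19.8% had them all below, and among the members these were 3 and 22.

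Col7a1 (chr9:108953586-108984875, plus strand), whose product forms the anchoring fibrils of skin, had 10.1, 11.1, 13.7 and 14.6 CPM in KO mTEChi and 21.6, 48.2 and 69.6 CPM as lowest, median and highest of WT mTEChi. In KO mTEClo it had 58.5, 73.3, 83.4 and 50.3 CPM, and in WT mTEClo 21.5, 26.3 and 30.8 CPM. As with Col2a1, neither pair overlapped and the directions were opposite. Col7a1 fell by 1.97 ± 0.24 on the log2 scale in KO mTEChi (adjusted p = 1.6e-07) and rose by 1.37 ± 0.20 in KO mTEClo (adjusted p = 1.4e-05), and the difference of the KO effects was -3.34 ± 0.30 (adjusted p = 8.7e-09). In WT it was higher in mTEChi than in mTEClo (0.93 ± 0.16, adjusted p = 1.5e-05), and in KO lower (-2.41 ± 0.25, adjusted p = 3e-09).

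**Figure D4:**
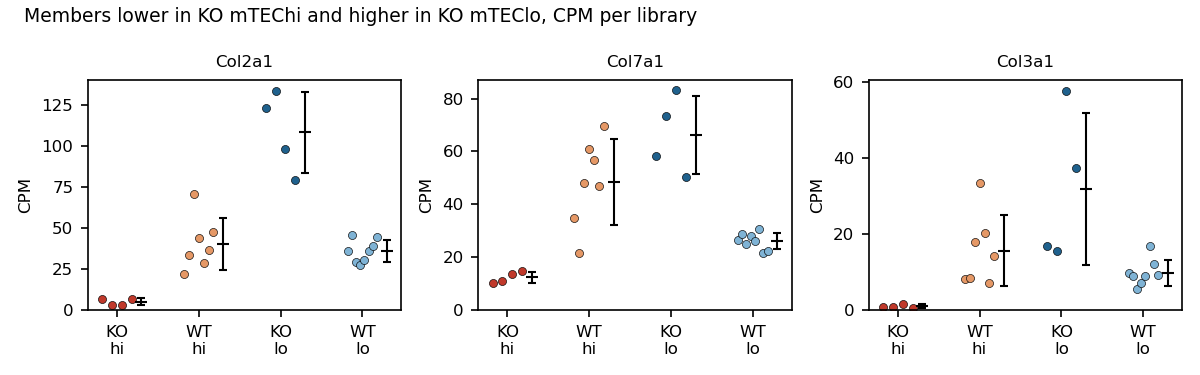
CPM per library of Col2a1, Col7a1 and Col3a1 in KO and WT mTEChi (hi) and mTEClo (lo), with points for libraries and bars for the mean ± SD. Each has a lower mean in KO than in WT in mTEChi and a higher one in mTEClo, where the Col3a1 libraries overlap. Col2a1 lies at 3.08 to 7.02 CPM in KO mTEChi and 79.2 to 134 CPM in KO mTEClo.

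In the second comparison, KO against WT in the gate with little Aire, 9 members rose and 6 fell, and 29 did not pass. Among all genes tested, 12.0% rose and 9.69% fell, and the median log2 change was 0.28 over the members and 0.01 over all genes tested. The members that rose were Col14a1, Col7a1, Col2a1, Col3a1, Col23a1, Col19a1, Col8a2, Col4a6 and Col18a1, and those that fell were Col6a4, Col9a3, Col12a1, Col27a1, Col8a1 and Col28a1. The counts depended on the libraries used. Among 5-week males alone, with 1 library of WT mTEClo whose spread is taken from the other groups, 4 members rose and 5 fell. Without replicate 3 of KO mTEClo 3 fell. The call of Col28a1 was lost without any 1 of 7 libraries (adjusted p = 0.0533 to 0.0864). Libraries of the groups did not overlap for 5 members that rose and 4 that fell, where 5.86% and 5.79% of all genes tested did so.

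Col23a1, a transmembrane chain, had 8.78, 8.59, 14.03 and 14.6 CPM in KO mTEChi and 7.80, 13.6 and 21.6 CPM as lowest, median and highest of WT mTEChi, which overlapped. The low gate held 19.5, 9.39, 21.1 and 15.5 CPM in KO, and in WT mTEClo 3.67, 6.77 and 8.40 CPM, and all KO libraries lay above. It passed in mTEClo (log2 change 1.34 ± 0.25, adjusted p = 0.00028), but not once age was in the fit. Col18a1, the multiplexin from which endostatin is cut, had 26.3, 20.9, 18.5 and 24.2 CPM in KO mTEChi and 18.6, 45.3 and 54.9 CPM in WT mTEChi, a fall of 0.85 ± 0.21 on the log2 scale (adjusted p = 0.0014) with overlap. Its mTEClo levels were 204, 207, 197 and 146 CPM in KO, and in WT mTEClo 113, 146 and 183 CPM, which also overlapped (log2 change 0.46 ± 0.16, adjusted p = 0.042). That call was lost with age in the fit, among 5-week males, and without any 1 of 9 libraries (adjusted p = 0.0529 to 0.106).

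Col15a1, the other multiplexin, lies in basement membrane zones and fell in mTEChi with little spread. It had 14.9, 16.8, 18.8 and 10.0 CPM in KO mTEChi and 42.1, 55.2 and 61.6 CPM as lowest, median and highest of WT mTEChi, without overlap (log2 change -1.77 ± 0.16, adjusted p = 3.6e-10). At low MHC class II it had 13.0, 10.7, 17.9 and 17.0 CPM in KO, and in WT mTEClo 13.8, 15.9 and 17.8 CPM (log2 change -0.05 ± 0.17, adjusted p = 0.88). Col8a1, a short-chain collagen of vessel walls and of the cornea, had 0, 0.409, 0.685 and 0 CPM in KO mTEChi, from 3 counts, and 4.34, 6.90 and 15.3 CPM in WT mTEChi, from 164. The ratio of WT to KO was 29.5 (95% counting interval 9.91 to 144). In KO mTEClo it had 8.66, 4.38, 8.64 and 10.4 CPM, and in WT mTEClo 8.90, 16.4 and 20.9 CPM, with overlap and a fall of 0.88 ± 0.29 on the log2 scale (adjusted p = 0.027). The fall did not pass without replicate 2 (adjusted p = 0.0667) or 3 (adjusted p = 0.0594) of KO mTEClo or replicate 3 of WT mTEClo (adjusted p = 0.0511).

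Of the short-chain members, Col10a1, the collagen of enlarging growth plate cartilage, fell in KO mTEChi with 6.77 ± 1.36 CPM in KO (n = 4) and 36.5 ± 8.05 CPM in WT (n = 7). Its promoter is shown because it was the only one among the members with a promoter sequence that had TATAAA starting 40 to 20 bases before the start, which is in capitals (GRCm38.p6, plus strand, 60 bases before the start).
Col10a1, chr10:34389921-34389980: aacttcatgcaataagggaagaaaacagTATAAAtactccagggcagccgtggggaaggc

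RefSeq promoters (250 bases before to 50 bases after the start) matched 35 of the 44 members, with 38 starts. Of these 38, TATAAA in that position was in 2.63%, against 1.99% of all 32851 promoters in the table. GGGCGG on either strand in the 250 bases before the start was in 57.9%, against 32.7% of all, and CCAAT on either strand in 34.2%, against 33.85% of all. The members without an entry were Col12a1, Col14a1, Col1a1, Col22a1, Col26a1, Col2a1, Col4a3, Col5a2 and Col9a3.

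The third comparison sets the gates against each other. In WT, 24 members were higher and 11 lower in mTEChi than in mTEClo, where 36.7% of all genes tested were higher and 33.4% lower. The median log2 change was 0.89 over the members and 0.00 over all genes tested. All 4 transmembrane chains were higher, as were 6 of 11 fibrillar chains, while the type VI chains split into 3 higher (Col6a3, Col6a5, Col6a6) and 3 lower (Col6a1, Col6a2, Col6a4). Among the fibrillar chains, Col3a1 passed narrowly in edgeR's test (adjusted p = 0.04). Its call was lost with age in the fit (adjusted p = 0.0803), among males (adjusted p = 0.572) and without replicate 4 of WT mTEChi (adjusted p = 0.176), among other settings. By the size of p, the leading members higher in mTEChi were Col14a1, Col6a3, Col5a3, Col17a1 and Col15a1, with log2 changes of 3.01, 6.54, 3.73, 1.42 and 1.72. The leading lower ones were Col6a2, Col6a1, Col12a1, Col18a1 and Col4a2, with log2 changes of -3.82, -3.31, -0.99, -1.75 and -1.73. All of these had an adjusted p of 2.5e-10 or less in edgeR's test and no overlap of libraries. For 16 members all WT mTEChi libraries lay above and for 9 all lay below, where 24.8% and 19.5% of all genes tested did so.

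In KO the balance was different, with 5 members higher and 21 lower in mTEChi than in mTEClo, against 29.2% of all genes tested higher and 28.0% lower. The median log2 change was -0.81 over the members and 0.00 over all genes tested. The 5 higher were Col14a1 (log2 change 2.78 ± 0.13), Col5a3 (2.14 ± 0.32), Col25a1 (2.05 ± 0.44), Col17a1 (1.80 ± 0.13) and Col6a5 (1.03 ± 0.41), and Col6a5 alone overlapped between gates. The call of Col6a5 (adjusted p = 0.041) was lost with DESeq2 (adjusted p = 0.0506), with only the groups compared in the fit (adjusted p = 0.125), among males (adjusted p = 0.0769), and without any 1 of 10 libraries (adjusted p = 0.0506 to 0.151). For 5 members all KO mTEChi libraries lay above and for 17 all lay below, where 25.0% and 22.1% of all genes tested did so. The leading lower ones were Col6a2 (-5.11 ± 0.21) and Col6a1 (-4.46 ± 0.22). This comparison and the previous one share the KO libraries or the WT libraries with the comparisons of genotype, so they are not independent of those.

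The KO effects differed between the gates for 27 members, all with a lower value in mTEChi than in mTEClo, and for no member the other way. Among all genes tested, 14.0% had such a lower value and 10.8% a higher one. At an unadjusted p under 0.05 in edgeR's quasi-likelihood test, 1 member had a higher value, Col17a1, with an adjusted p = 0.08, and DESeq2 called none. The difference of log2 changes was -8.88 ± 0.94 for Col6a3 (adjusted p = 1.4e-07), -7.43 ± 1.08 for Col1a1 (adjusted p = 4.1e-05) and -5.74 ± 0.68 for Col3a1 (adjusted p = 1.3e-06). It was -5.93 ± 1.19 for Col11a1 (adjusted p = 0.00043), where KO mTEChi held 1 count. Of Col6a3 and Col1a1, KO mTEChi held 4 and 9 counts. Col2a1, Col3a1, Col7a1, Col4a6 and Col18a1 fell in KO mTEChi and rose in KO mTEClo. For Col3a1, Col4a6 and Col18a1 the mTEClo libraries of the genotypes overlapped. Their rises did not pass in edgeR's test with age in the fit (adjusted p = 0.371, 0.642 and 0.517). Among 5-week males alone the difference passed for 18 members with a lower value.

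Some collagen genes also split by age within KO, a split looked for after the values were seen and described here without a test. In KO mTEChi, 10 members were over 1.5-fold lower in both 6-week libraries than in both 5-week ones, where 3.32% of all genes tested were, and Col23a1 was higher, where 5.05% of all were. The 10 were Col1a1, Col4a1, Col4a2, Col5a1, Col5a2, Col5a3, Col6a4, Col6a5, Col16a1 and Col22a1. Col1a1 had only 9 counts over all KO mTEChi libraries, too few to tell its split from counting error. Col5a1, a chain of type V collagen, had 50.7 and 49.7 CPM at 6 weeks and 137 and 127 CPM at 5 weeks, and Col16a1, a FACIT chain, had 28.1 and 31.3 CPM at 6 weeks and 82.05 and 66.7 CPM at 5 weeks. Apart from Col1a1, the KO means of these genes therefore lie between clusters of libraries.

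In KO mTEClo, 5 members were higher at 6 weeks (Col3a1, Col4a4, Col4a5, Col4a6 and Col9a1, with 7.32% of all genes) and 4 were lower (Col22a1, Col26a1, Col6a4 and Col6a5, with 6.01% of all). Col6a5 had 24.7 and 17.5 CPM at 6 weeks and 74.2 and 107 CPM at 5 weeks. In WT mTEChi, Col16a1, Col18a1, Col1a1 and Col5a3 were higher in all 5 libraries of 5 weeks than in both of 4 weeks, where 1.77% of all genes were, and none was lower (0.212% of all). In WT mTEClo no member split this way (0.114% of all genes higher and 0.192% lower). The younger libraries of KO mTEClo and WT mTEChi are also those under 2000000 counts, so age and depth cannot be told apart in them. All KO mTEChi libraries exceeded that depth. There the 5-week libraries are replicates 1 and 2 and the 6-week ones replicates 3 and 4. Age therefore cannot be told apart from anything else that those replicates shared.

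**Figure D5:**
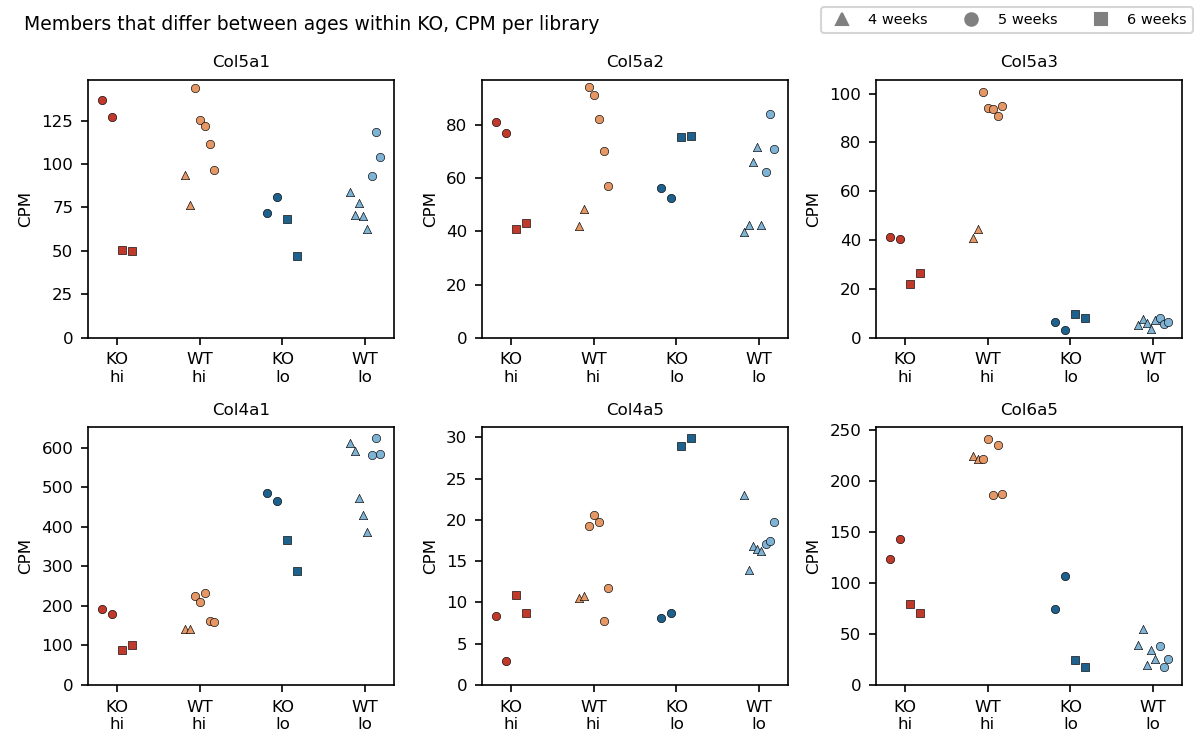
CPM per library of Col5a1, Col5a2, Col5a3, Col4a1, Col4a5 and Col6a5 in KO and WT mTEChi (hi) and mTEClo (lo), with triangles for 4 weeks, circles for 5 weeks and squares for 6 weeks. In KO mTEChi the 6-week squares of Col5a1 lie at 50.7 and 49.7 CPM, below the 5-week circles at 137 and 127 CPM, and in KO mTEClo the Col4a5 squares lie above the circles.

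The genes that make, fasten and read collagen were looked at from lists, which were chosen with earlier results of these data known. Their counts stand beside 25.7% of all genes tested that rose and 28.0% that fell in KO mTEChi, and 12.0% that rose and 9.69% that fell in KO mTEClo. Of 22 folding and modification genes, 7 rose and 11 fell in KO mTEChi, and the share that rose was close to that of all genes. P3h1, which hydroxylates proline in collagen chains, rose with 63.0 ± 7.93 CPM in KO and 20.6 ± 3.30 CPM in WT (log2 change 1.63 ± 0.14, adjusted p = 1.7e-10), and the proline isomerase Ppib rose by 0.71 ± 0.14 (adjusted p = 6.9e-05). Creb3l1, a regulator of collagen secretion, fell (log2 change -2.82 ± 0.32, adjusted p = 3.6e-08), as did the lysyl hydroxylase Plod2 (-1.47 ± 0.21, adjusted p = 1.2e-06). In KO mTEClo 5 of the 22 rose and 2 fell.

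Of 13 tested genes of procollagen cleavage and cross-linking, 3 rose and 4 fell in KO mTEChi, both close to the shares of all genes. The procollagen protease Adamts3 fell (1.855 ± 0.796 CPM in KO and 19.4 ± 4.435 CPM in WT) and so did the cross-linking enzyme Lox (1.84 ± 1.22 CPM in KO and 12.1 ± 6.87 CPM in WT), while Loxl3 and Adamts2 rose by log2 changes of 0.89 ± 0.13 and 0.74 ± 0.20. In KO mTEClo 4 rose and 1 fell. Of 9 tested receptors, 1 rose and 5 fell in KO mTEChi, led by the collagen uptake receptor Mrc2 with 0.380 ± 0.443 CPM in KO and 19.4 ± 7.25 CPM in WT. In KO mTEClo 1 rose, again Mrc2 (log2 change 1.97, adjusted p = 0.016), and 1 fell. Of 7 genes of collagen breakdown, 6 fell in KO mTEChi, among them the collagenase Mmp13 with 0.709 ± 1.14 CPM in KO and 21.5 ± 6.37 CPM in WT, and in KO mTEClo Ctsk rose (log2 change 1.42, adjusted p = 0.0025).

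Cartilage genes outside the collagen family were looked at in the same way. Of 9 tested genes of the chondrocyte list, 8 fell and 1 rose in KO mTEChi. Acan, the main cartilage proteoglycan, had 0.313 ± 0.627 CPM in KO and 58.3 ± 11.8 CPM in WT, and Comp, a cartilage matrix protein, 1.41 ± 1.27 CPM in KO and 20.9 ± 4.85 CPM in WT. The one that rose was Sox9, the master regulator of chondrocytes, with 202 ± 21.5 CPM in KO and 98.6 ± 19.9 CPM in WT (log2 change 1.02 ± 0.14, adjusted p = 9.8e-07). In KO mTEClo 3 of the 9 rose, among them Sox9 (log2 change 0.49, adjusted p = 0.011) and its partner Sox6 (2.32, adjusted p = 9e-08). Of 8 genes for hemidesmosomes and their laminin, the partners of types VII and XVII, 2 rose in KO mTEChi (Lama3 and Plec) and 1 fell (Lamb3), and in KO mTEClo 4 fell. All 8 were lower in WT mTEChi than in WT mTEClo, where 33.4% of all genes tested were lower. Col17a1 and Col7a1 were higher in that comparison.

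Markers of other cells moved beside these results. Among 8 tested fibroblast markers, Pdgfra, Pi16, Mfap5 and Fbln1 fell and Dcn rose in KO mTEChi, with Pdgfra at 0.207 ± 0.239 CPM in KO and 5.82 ± 3.71 CPM in WT and Dcn at 76.6 ± 16.0 CPM in KO and 30.35 ± 4.775 CPM in WT. In KO mTEClo, Pdgfrb and Fbln1 rose. The summed level of 8 endothelial markers was 49.5 to 71.9 CPM in KO mTEChi and 68.9 to 106 CPM in WT mTEChi, with Tie1 at 0 in KO mTEChi. In KO mTEClo it was 62.6 to 100.5 CPM, with Cdh5 and Tie1 at 0, and in WT mTEClo 47.7 to 71.3 CPM. Of 6 tested endothelial markers, 4 fell and 0 rose in KO mTEChi, where 28.0% of all genes tested fell. In KO mTEClo 2 rose and 0 fell, where 12.0% of all rose. The 6 mural markers summed to 888 to 1079 CPM in KO mTEChi and 809 to 992.5 CPM in WT mTEChi, and to 1122 to 1669 CPM in KO mTEClo and 1249 to 1589 CPM in WT mTEClo. The 6 markers of cortical epithelium summed to 410 to 481 CPM in KO mTEChi and 331 to 399 CPM in WT mTEChi, without overlap, where 2 rose and 3 fell. In KO mTEClo they summed to 283 to 498 CPM and in WT mTEClo to 199 to 243.5 CPM, again without overlap, and 5 of the 6 rose (median log2 change 1.03) beside the collagen genes that rose there. The 6 thymocyte markers summed to 37.65 to 50.7 CPM in KO mTEChi and 61.4 to 79.1 CPM in WT mTEChi, and to 11.02 to 15.3 CPM in KO mTEClo, with Ptcra at 0, and 9.67 to 18.6 CPM in WT mTEClo. Of 4 tested, 3 fell and 0 rose in KO mTEChi, and 1 fell and 0 rose in KO mTEClo. The part of such cells in the collagen levels was not tested.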

How the data were processed

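Per the labels' protocols, cDNA was primed from oligo(dT) and from not-so-random sequences and cut with Tn5, so strand is lost. The deposited table holds the authors' raw counts, with Ensembl genes in rows. The submitters' processing notes name HTSeq 0.11.2, STAR 2.7.3a, fastp 0.20.0, Picard 2.21.1, edgeR and SAMtools 1.9, with mm10 and GRCm38 as builds and no roles. Symbols, positions and exon lengths came from GENCODE of GRCm38 (53316 of 53402 identifiers had a symbol). Exon length joined the exons of all annotated transcripts of a gene. Ranks and ratios of chains per kilobase therefore depend on the annotation and are not ratios of transcripts. A deposited normalized table was not used.

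Low genes were removed by filterByExpr (minimum count 10, by group) and the rest fitted in edgeR 4.0.16 (R 4.3.3) with TMM factors and robust quasi-likelihood, over all 23 libraries in 1 fit with terms for group and sex. KO libraries were all male, so the sex term rests on WT. The threshold was an adjusted p under 0.05 (Benjamini-Hochberg over 19310 genes), and the SE is the log2 change divided by the square root of F. Where a group held 1 to 3 counts, the ratio of counts per depth has an exact 95% interval, which covers counting error only. The fit was tested on simulated data for KO against WT mTEChi. It recovered 55% of 100 genes changed by 1 on the log2 scale and 86% of 100 changed by 2, with 7 false calls. Members that did not pass are therefore not shown to be unchanged.

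Members and lists were chosen with earlier results of these data known. Values per library are given for the 5 members with the smallest p in each direction in KO against WT of each gate and in the gates of WT, the 4 with the smallest p for the difference between gates, the 6 highest per kilobase, and the type IV chains. Other members named were chosen after their values were seen. Same-numbered KO mTEChi and KO mTEClo libraries deviated together (r 0.139 to 0.222). So did KO libraries of the same age but different number (r 0.107 to 0.279). These values thus do not mark pairs by number, and the main fit held no term for replicate number. No 2 libraries of a group were identical, but some differed little. The chi-square per degree of freedom between 2 libraries is about 1 under counting error alone. In KO mTEChi it was 1.34 for replicates 1 and 2 and 1.28 for 3 and 4, against 3.998 to 6.39 across them. In KO mTEClo it was 1.62 and 3.99, against 6.28 to 12.15. In WT mTEChi it was 1.23 for replicates 1 and 2. A group may thus hold fewer independent samples than libraries, which was not tested. Alternatives were other scaling factors, filters, thresholds and terms, DESeq2 1.42.0, a replicate block, subsets by sex, age and depth, and leaving out each library.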

Additional observations from a re-analysis of the deposited data

Results flagged for a closer look

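Of 176 sets of 1 member in 1 group, 13 held a library far from the others by Dixon's test. For normally distributed values, chance alone flags about 1 of 20 groups. That rate does not hold for counts near 0. Where only 1 library held counts, as for Col11a1, Col24a1 and Col26a1 in KO mTEChi, the test flags it whatever its value. In KO mTEChi, the single counts of Col11a1 and of Col24a1 both came from replicate 2 (0.409 CPM each), the counts of Col26a1 all came from replicate 1 (1.32 CPM), and Col4a6 was highest in replicate 4 at 4.18 CPM. In WT mTEChi, replicate 4 was highest for Col28a1 (7.25 CPM) and Col9a1 (32.3 CPM), and replicate 7 for Col6a3 (137 CPM). In KO mTEClo, replicate 4 was lowest for Col18a1 (146 CPM). In WT mTEClo, replicate 6 was highest for Col10a1 (16.5 CPM) and Col1a2 (7.63 CPM), replicate 1 was highest for Col6a6 (4.02 CPM), and replicate 4 was lowest for Col23a1 (3.67 CPM) and Col9a3 (10.2 CPM).

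The KO effect differed between the gates for 27 members, each with a lower log2 change in mTEChi than in mTEClo (adjusted p of the difference under 0.05 in edgeR's quasi-likelihood test). For fibrillar chains the difference of log2 changes was -7.43 for Col1a1, -5.93 for Col11a1, -5.74 for Col3a1, -5.71 for Col24a1, -4.64 for Col2a1, -3.19 for Col1a2 and -1.59 for Col5a3. For type VI chains it was -8.88 for Col6a3, -4.125 for Col6a6, -1.785 for Col6a5, -1.29 for Col6a2 and -1.15 for Col6a1. For type IV chains it was -3.51 for Col4a3, -2.41 for Col4a6 and -2.305 for Col4a4. FACIT chains gave -2.77 for Col9a1, -1.74 for Col20a1 and -0.44 for Col12a1, and the short-chain members -3.76 for Col8a1, -2.08 for Col8a2 and -1.68 for Col10a1. Col7a1 gave -3.34, Col13a1 -3.67, Col23a1 -1.61, Col15a1 -1.72, Col18a1 -1.31 and Col26a1 -5.10. The values of Col11a1, Col24a1, Col26a1, Col8a1 and Col6a3 rest on 1 to 4 counts in KO mTEChi and depend on the prior count. The difference of Col6a5 did not pass in edgeR's test without libraries under 2000000 counts (-0.68, adjusted p = 0.224). Among males it did not pass either (adjusted p = 0.0661).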

How the results depend on the processing

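The 137 member changes that passed over the 5 comparisons all kept their calls with RLE and with upper quartile factors, although upper quartile factors moved the median of all genes to -0.125 in KO against WT mTEChi and to -0.116 in the difference between gates. Calls were kept for 121 of 137 when any 1 library was left out, and for 98 under every alternative that gave them a value, which a minimum count of 30 did for 107 of the 137, males only for 133 and only the groups compared for 128. The mTEClo comparison of KO with WT changed most. Its count of members that rose, 9, was 4 among 5-week males, and its count that fell, 6, was 3 at an adjusted p under 0.01. For the difference of KO effects, members with a higher value in mTEChi numbered 2 with age in the fit (Col17a1 and Col6a4), 1 among 5-week males (Col16a1) and 1 without libraries under 2000000 counts (Col6a4), against 0, and 1 without replicate 2 of KO mTEClo (Col17a1). Among 5-week males, 3 signs turned, to -0.05328 for Col3a1 and -0.17 for Col4a6 in KO against WT mTEClo and to -0.39 for Col3a1 between gates of WT (adjusted p = 0.373). The cause was not tested.

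Leaving out 1 library at a time gave 3 to 3 members higher and 28 to 32 lower in KO against WT mTEChi, and 8 to 11 higher and 3 to 6 lower in KO against WT mTEClo, the 3 without replicate 3 of KO mTEClo. Between the gates it gave 23 to 24 higher and 11 to 12 lower in WT, and 4 to 6 higher and 17 to 23 lower in KO. For the difference it gave 0 to 1 higher and 27 to 28 lower.

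The replicate block was a term for replicate number over all libraries, so it also tied WT to KO libraries that merely share a number. With it, 3 members rose and 32 fell in KO mTEChi, and 11 rose and 4 fell in KO mTEClo. Between gates the block gave 22 higher and 11 lower in WT and 5 higher and 22 lower in KO, and 27 members had a lower KO effect in mTEChi. The block took the call from Col28a1 and Col8a1 in KO mTEClo and from Col3a1 and Col8a2 between gates in WT. Outside the KO gates, same-numbered libraries gave correlations of -0.179 to 0.0979. Depth limits members near 0: 3 counts over a group correspond to 0.299 CPM in KO mTEChi and 0.161 CPM in WT mTEChi, and to 0.275 CPM in KO mTEClo and 0.122 CPM in WT mTEClo.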
